A study of Mus musculus with 4 samples.

Results

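The genes described here drive the passage of a cell through G1, the phase in which it either commits to DNA replication or leaves the cycle. They are the D-type cyclins *Ccnd1*, *Ccnd2* and *Ccnd3*, the E-type cyclins *Ccne1* and *Ccne2*, the cyclin-dependent kinases *Cdk2*, *Cdk4* and *Cdk6*, and the transcription factors *Myc* and *E2f1*. They were taken by symbol as a set of G1 genes, with earlier results of these data known, and all 10 were found among the 36144 rows of the table. All 10 had more than 10 counts in at least 2 libraries, the filter that left 13979 genes tested.

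D-type cyclins are induced by growth factors and bind Cdk4 and Cdk6, which phosphorylate the retinoblastoma protein and its relatives. This releases E2F transcription factors, which switch on the E-type cyclins, their partner Cdk2 and the genes of DNA replication. Myc, a transcription factor of growth, and cyclin D1 are both known as Wnt targets in the intestinal crypt, the niche in which stem cells and their daughters divide. Butyrate, a fatty acid made by colonic bacteria, is an inhibitor of histone deacetylases and a ligand of the receptor FFAR2.

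RNA was sequenced from mouse colonic organoids (colonoids), which are cultures of epithelial stem cells and their progeny, at passage 3. The 4 libraries were untreated on day 2, butyrate for 48 h, untreated on day 3 and butyrate for 72 h, with sodium butyrate at 2 mM. The labels give a WT male mouse of 24 weeks, whereas the methods of the study describe colonoids from Hes1-GFP reporter mice, and a legend states that the organoids sequenced came from 1 animal. Every culture, untreated ones included, received EGF at 40 ng/ml, Noggin at 200 ng/ml, R-spondin at 500 ng/ml, the GSK3 inhibitor CHIR99021 at 3 µM and the ROCK inhibitor Y-27632 at 10 µM. EGF is a mitogen, and CHIR99021 and R-spondin are activators of Wnt signalling.

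Library totals lay between 20790225 and 24207840 counts, and genes of the mitochondrial genome took 14.1% to 18.4% of them. All 10 markers of colonic epithelium passed the filter. Of 5 immune cell markers 1 passed, of 5 mesenchyme markers 2, and of 4 endothelium and glia markers 2. The summed normalised counts of these lists were 41.7 to 71.3, 116 to 152 and 56.2 to 91.8 over the 4 libraries. *Cd3e* had at most 3 counts, *Col1a2* at most 2, *Cdh5* at most 1 and *S100b* none. The untreated libraries are called untreated at 48 h and at 72 h below.

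A normalised count is the deposited count divided by the size factor of its library. A log2 fold change compares 2 normalised counts after adding a pseudocount of 1. With 1 library per condition there is no replicate spread and no test, and every interval is a 95% interval that covers counting error only. Such intervals are narrow for well-counted genes. At 48 h they left out 0 on the higher side for 29.3% and on the lower side for 31.3% of the tested genes, and at 72 h for 25.9% and 26.4%, so an interval apart from 0 does not set a gene apart from the rest. Bulk RNA also cannot tell fewer cells of a type from less RNA per cell.

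With butyrate the cyclins, *Myc* and *E2f1* were higher at both times, whereas the 3 kinases were lower at 48 h and higher at 72 h. At 48 h, 7 of the 10 genes had an interval above 0 and 3 below it. At 72 h all 10 had an interval above 0. The median log2 fold change of the 10 was 0.31 at 48 h and 0.39 at 72 h, beside −0.011 and 0.0022 for all tested genes. At least 2-fold higher were *Myc* at 48 h, where 6.94% of tested genes were as well, and *Ccnd1* at 72 h, where 4.53% were. Among genes averaging 50 normalised counts or more, as all 10 do, these shares were 3.93% and 2.33%. At least 2-fold lower were none of the 10, against 3.08% of tested genes at 48 h and 3.78% at 72 h (1.54% and 1.605% of those averaging 50 or more). Higher at both times with both intervals apart from 0 were 7 of the 10, against 12.9% of tested genes.

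**Figure D1:**
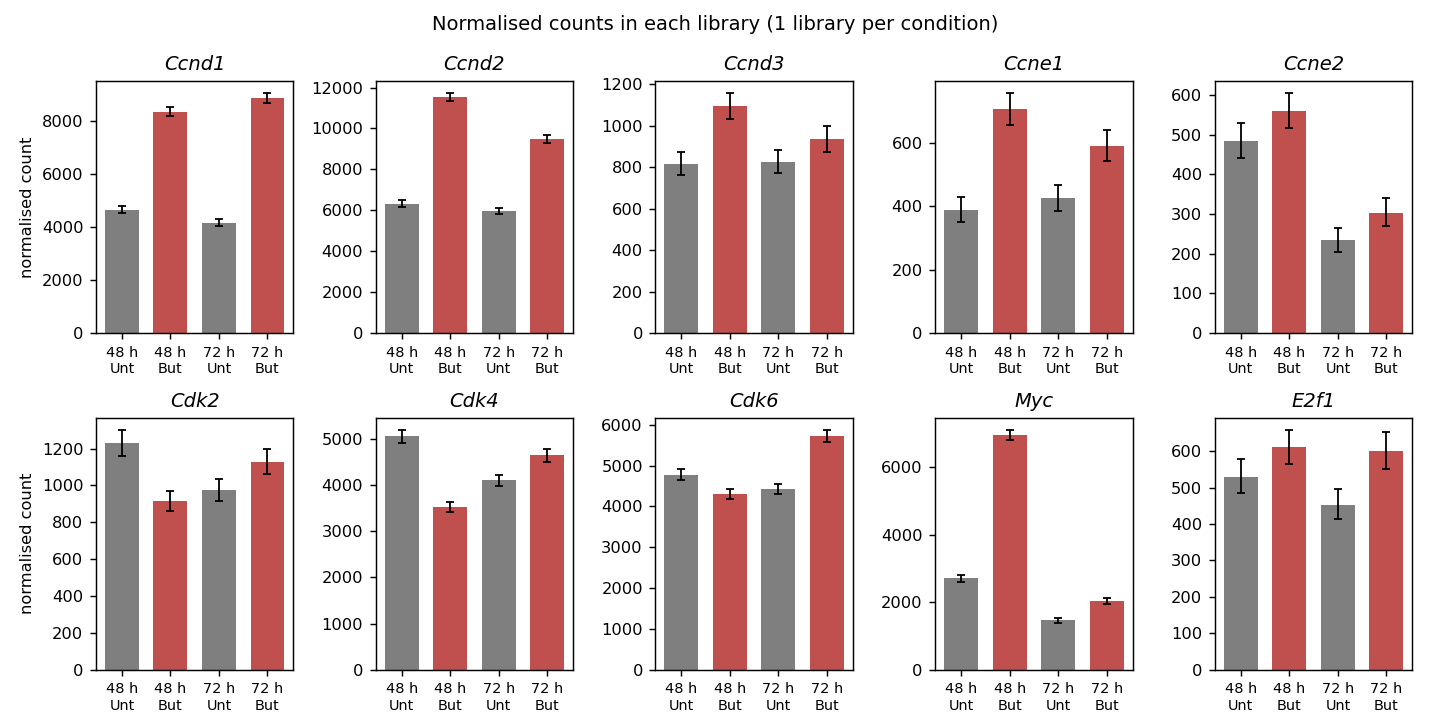
Normalised count of each gene (vertical axis, own scale per panel) in the untreated (Unt, grey) and butyrate-treated (But, red) libraries at 48 h and 72 h. Bars are single libraries and error lines are exact 95% Poisson intervals. All genes but *Cdk2* and *Cdk4* stand highest in a butyrate library, and *Cdk2*, *Cdk4* and *Cdk6* are lowest in the butyrate library at 48 h.

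**Figure D2:**
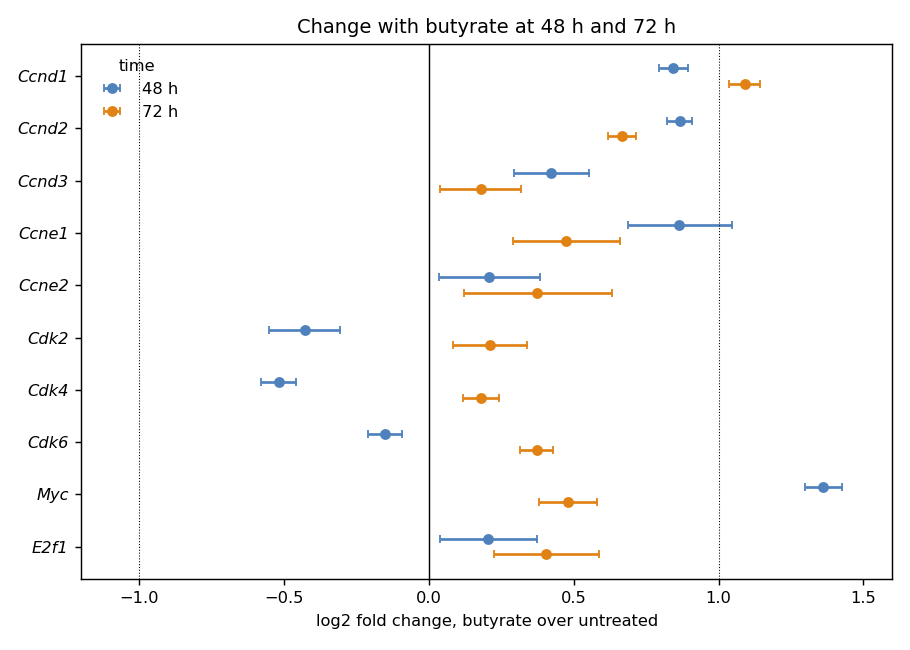
Log2 fold change of butyrate over untreated (horizontal axis) for each gene at 48 h (blue) and 72 h (orange), with 95% counting intervals. Dotted lines mark a 2-fold change. The kinases *Cdk2*, *Cdk4* and *Cdk6* lie left of 0 at 48 h and right of it at 72 h, and the other 7 genes lie right of 0 at both times.

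*Ccnd1*, which encodes cyclin D1 and lies on chromosome 7 from 144929931 to 144939925 in GRCm38, stood at 4655 normalised counts without and 8354 with butyrate in the 48 h pair, against 4167 and 8870 in the 72 h pair. Both butyrate libraries were above both untreated ones. Its change with butyrate, as log2 fold, was 0.84 (0.79 to 0.90) after 48 h and 1.09 (1.04 to 1.14) after 72 h, higher than in 91.3% and 96.1% of tested genes. *Ccnd2*, which encodes cyclin D2 on chromosome 6 from 127125162 to 127152193, stood at 6330.5 (untreated) and 11532 (butyrate) normalised counts in the 48 h pair and at 5971 and 9473 in the 72 h pair. Its change with butyrate, as log2 fold, was 0.87 (0.82 to 0.91) after 48 h and 0.67 (0.62 to 0.71) after 72 h, and again the butyrate libraries were the higher ones. *Ccnd3*, which encodes cyclin D3 on chromosome 17 from 47505051 to 47599691, stood at 816 (untreated) and 1093 (butyrate) normalised counts in the 48 h pair and at 824 and 933 in the 72 h pair, with changes of 0.42 (0.29 to 0.55) and 0.18 (0.04 to 0.32). It showed the smallest change of the 3 D-type cyclins at each time.

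Summed over the 3 genes, D-type cyclin RNA was higher with butyrate by 0.83 (0.80 to 0.86) on the log2 scale after 48 h and by 0.81 (0.78 to 0.85) after 72 h. The make-up of that sum was then compared as the share of each gene in the summed counts of its family, which needs no scaling between libraries. *Ccnd1* held 39.4% (38.5 to 40.3) of the D-type counts without and 39.8% (39.2 to 40.5) with butyrate in the 48 h pair, against 38.0% (37.1 to 38.9) and 46.0% (45.3 to 46.8) in the 72 h pair. The butyrate library at 72 h therefore stood apart from the other 3, whose intervals overlapped except between untreated at 72 h and butyrate at 48 h. *Ccnd2* held 49.1% (48.4 to 49.9) in that library and 53.6% to 55.0% in the others. *Ccnd3* held 6.91% without and 5.21% with butyrate in the 48 h pair, against 7.52% and 4.84% in the 72 h pair.

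**Figure D3:**
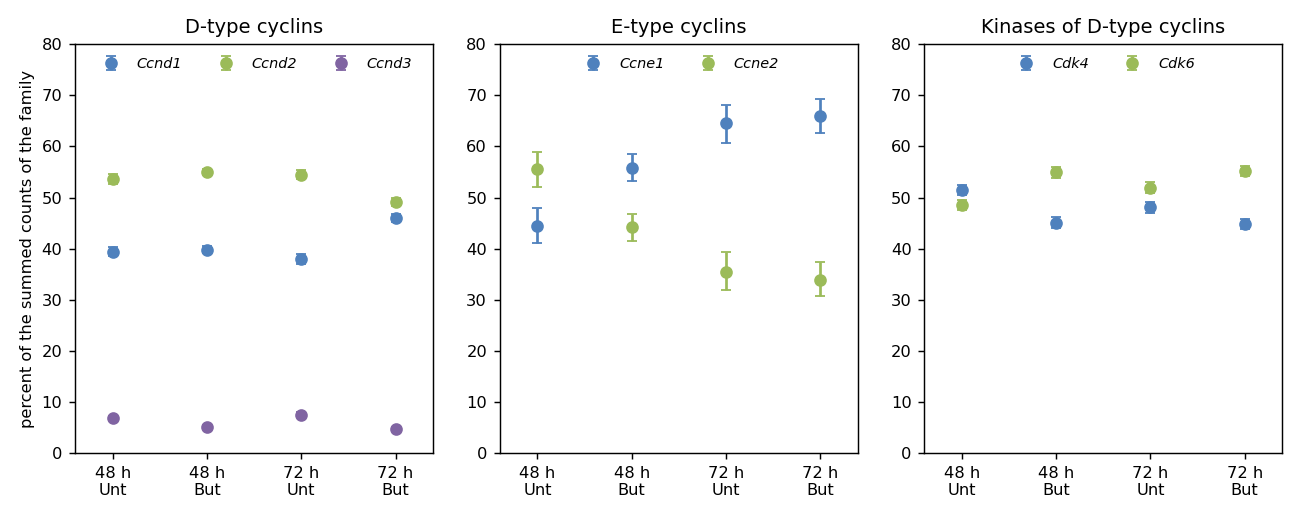
Share of each gene in the summed counts of its family (vertical axis, percent) in the 4 libraries, for the D-type cyclins, the E-type cyclins and the kinases that bind D-type cyclins. Error lines are exact 95% binomial intervals. *Ccnd1* is at 46.0% in the butyrate library at 72 h and at 38.0% to 39.8% elsewhere. By counts, *Ccne1* and *Ccne2* change order between untreated at 48 h and the other libraries. Per kb of exon *Ccne1* was at 146 and *Ccne2* at 138 untreated at 48 h, with overlapping intervals.

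*Ccne1*, which encodes cyclin E1 on chromosome 7 from 38097984 to 38107534, stood at 388 normalised counts without and 706 with butyrate in the 48 h pair, against 425 and 590 in the 72 h pair. Its change with butyrate, as log2 fold, was 0.86 (0.69 to 1.05) at 48 h, about that of *Ccnd1* and *Ccnd2*, and 0.47 (0.29 to 0.66) at 72 h. *Ccne2*, which encodes cyclin E2 on chromosome 4 from 11191351 to 11204779, stood at 484 (untreated) and 559 (butyrate) normalised counts in the 48 h pair and at 234 and 303 in the 72 h pair. Here the libraries separated by time rather than by treatment, both at 72 h lying below both at 48 h. Summed, E-type cyclin RNA differed with butyrate by 0.54 (0.41 to 0.66) and 0.44 (0.29 to 0.59). For *Ccne2* alone the change was 0.21 (0.03 to 0.38) and 0.37 (0.12 to 0.63). From 48 h to 72 h *Ccne2* was lower by a log2 change of −1.04 (−1.28 to −0.82) between the untreated libraries and −0.88 (−1.09 to −0.68) between the butyrate libraries. *Ccne1* held 44.5% (41.1 to 47.9) of the E-type counts without and 55.8% (53.2 to 58.4) with butyrate in the 48 h pair, against 64.5% (60.7 to 68.1) and 66.0% (62.7 to 69.2) in the 72 h pair. At 72 h these intervals overlapped, and a difference in share was not detectable at this depth.

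The kinases took the opposite direction to the cyclins at 48 h. *Cdk4*, a partner of the D-type cyclins on chromosome 10 from 127063534 to 127067920, stood at 5051 normalised counts without and 3525 with butyrate in the 48 h pair, against 4097 and 4637 in the 72 h pair. Its lowest library was butyrate at 48 h, and its log2 fold changes were −0.52 (−0.58 to −0.46) and 0.18 (0.12 to 0.24). *Cdk6*, the other partner of the D-type cyclins, on chromosome 5 from 3341485 to 3531008, stood at 4775 (untreated) and 4300 (butyrate) normalised counts in the 48 h pair and at 4421 and 5721 in the 72 h pair. Its highest library was butyrate at 72 h, and its changes were −0.15 (−0.21 to −0.09) and 0.37 (0.31 to 0.43). *Cdk2*, the partner of cyclin E on chromosome 10 from 128697939 to 128705031, stood at 1231 (untreated) and 915 (butyrate) normalised counts in the 48 h pair and at 974.5 and 1128 in the 72 h pair, with changes of −0.43 (−0.55 to −0.31) and 0.21 (0.08 to 0.34). As with *Cdk4*, its highest library was untreated at 48 h and its lowest butyrate at 48 h.

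Lower at 48 h and higher at 72 h, with both intervals apart from 0, were thus 3 of the 10 genes, and 5.33% of tested genes showed the same. None of the 10 showed the reverse order, against 4.54%. Of the summed counts of *Cdk4* and *Cdk6*, *Cdk4* held 51.4% (50.4 to 52.4) without and 45.0% (44.0 to 46.1) with butyrate in the 48 h pair, against 48.1% (47.0 to 49.2) and 44.8% (43.8 to 45.8) in the 72 h pair. Within the pair the share of *Cdk4* was therefore lower with butyrate at both times. The ratio of D-type cyclin RNA to kinase RNA moved as well, since the sum of *Cdk4* and *Cdk6* differed by −0.33 (−0.37 to −0.29) at 48 h and 0.28 (0.24 to 0.32) at 72 h while the D-type cyclins were higher at both. Exons of *Tspan31* on the opposite strand overlap 641 bases of *Cdk4* exons (19.7%), and whether the counting used strand is not given in the sources used here. *Tspan31* had 1471 (untreated) and 2053 (butyrate) counts in the 48 h pair and 1392 and 1447 in the 72 h pair.

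Exons on the opposite strand also overlap the cyclin genes. *LTO1* overlaps 23.4% of the exon bases of *Ccnd1* and had 394 (untreated) and 423 (butyrate) counts in the 48 h pair and 320 and 290 in the 72 h pair. *Ints8* overlaps 17.4% of those of *Ccne2* and had 1066 (untreated) and 954 (butyrate) counts in the 48 h pair and 1191 and 1002 in the 72 h pair. *Bysl* overlaps 4.11% of those of *Ccnd3* and had 682 (untreated) and 1025 (butyrate) counts in the 48 h pair and 655 and 605 in the 72 h pair. How far such reads enter the counts of *Cdk4* and the cyclins was not tested.

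The sequences before the start sites of the kinases are shown because *Cdk4* is a textbook target of Myc and lay lower with butyrate at 48 h, where *Myc* lay higher. RefSeq start sites in GRCm38.p6 were matched for 6 of the 10 genes, *Ccnd3*, *Ccne1*, *Cdk2*, *Cdk4*, *Cdk6* and *E2f1*. The 250 bases before each start were searched for the E-box CACGTG, the sequence that Myc binds, which reads the same on both strands. They were also searched on both strands for the E2F sequences TTTGGCGC, TTTGCCGC, TTTCCCGC and TTTCGCGC. Capitals mark matches, and each sequence is given 5′ to 3′ on the strand of the gene, from chr10:127063285-127063534 (plus strand) for *Cdk4*, chr5:3343643-3343892 (plus strand) for *Cdk6* and chr10:128705052-128705301 (minus strand) for *Cdk2*.
Cdk4: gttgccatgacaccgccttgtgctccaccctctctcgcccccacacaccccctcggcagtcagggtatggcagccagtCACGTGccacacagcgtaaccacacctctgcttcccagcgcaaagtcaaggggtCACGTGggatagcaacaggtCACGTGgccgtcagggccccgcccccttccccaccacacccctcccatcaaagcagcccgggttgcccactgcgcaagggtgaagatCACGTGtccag
Cdk6: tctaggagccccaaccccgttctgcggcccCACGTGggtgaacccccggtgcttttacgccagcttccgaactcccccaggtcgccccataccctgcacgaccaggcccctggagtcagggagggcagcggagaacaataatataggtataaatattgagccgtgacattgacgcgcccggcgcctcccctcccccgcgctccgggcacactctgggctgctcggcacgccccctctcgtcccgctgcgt
Cdk2: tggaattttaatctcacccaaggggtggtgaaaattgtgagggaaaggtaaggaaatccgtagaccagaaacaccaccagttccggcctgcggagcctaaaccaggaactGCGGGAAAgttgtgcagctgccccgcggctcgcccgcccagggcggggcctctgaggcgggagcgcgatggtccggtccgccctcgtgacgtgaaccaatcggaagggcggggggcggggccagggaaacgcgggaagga

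*Cdk4* held 4 E-boxes, which began 172, 118, 98 and 11 bases before the start. *Cdk6* held 1, which began 220 bases before it, and *Cdk2* held none. Of 32851 promoter windows of the same length, 6.02% held at least 1 E-box and 7 (0.0213%) held 4 or more. *Cdk2* held 1 E2F match, TTTCCCGC read on the opposite strand, which began 140 bases before the start, and 1.86% of windows held a match to any of these E2F sequences. The windows of *Ccnd3* and *Ccne1* held neither set of letters. The RefSeq start used for *Cdk6*, that of *E2f1* and 1 of the pair for *Ccnd3* lie inside the GENCODE gene, so these windows are not the sequence before its first annotated start, and nothing is read from the *E2f1* window. The windows of *Ccne1* and *Cdk4* reach into the GENCODE gene at their 3′ end, so the starts used for them lie inside it as well. These matches describe letters in a window and not sites in use.

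*Myc*, on chromosome 15 from 61985391 to 61990374, spanned the widest range of the 10 genes, with its highest library 4.75 times its lowest. It stood at 2706 normalised counts without and 6947 with butyrate in the 48 h pair, against 1463 and 2041 in the 72 h pair. The butyrate library at 48 h stood far above the others, and the untreated library at 48 h was above the butyrate library at 72 h. The log2 fold change with butyrate was 1.36 (1.30 to 1.42) at 48 h, a 2.57-fold level higher than in 95.7% of tested genes, and 0.48 (0.38 to 0.58) at 72 h. Over time *Myc* was lower by −0.89 (−0.98 to −0.79) between the untreated libraries and by −1.77 (−1.84 to −1.69) between the butyrate libraries. The change with butyrate was smaller at 72 h than at 48 h by −0.88 on the log2 scale, with an interval below 0.

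Genes of the Myc network and Myc targets were followed as lists. Myc acts as a dimer with Max, and the Mxd proteins compete with it for Max. Of 10 network genes 9 were tested. At 48 h 6 had an interval below 0 and 1 above it, beside 31.3% and 29.3% of tested genes, with a median of −0.25. At 72 h 4 were below and 3 above, beside 26.4% and 25.9%, with a median of −0.10. *Mxd4* had 1385 (untreated) and 584 (butyrate) counts in the 48 h pair and 1381 and 784 in the 72 h pair, with log2 fold changes of −1.42 (−1.56 to −1.28) and −0.69 (−0.82 to −0.56). *Mxd1* differed by −0.70 (−0.80 to −0.60) and −0.61 (−0.72 to −0.50), and *Mlx*, which binds the Mxd proteins in a parallel network, by −0.19 (−0.30 to −0.09) and −0.67 (−0.79 to −0.56). *Max* itself, named after its values were seen, differed by 0.23 (0.14 to 0.31) and −0.12 (−0.21 to −0.03). The Mxd genes did not all fall at both times. *Mxd3* was at −0.58 (−0.96 to −0.20) and 0.06 (−0.46 to 0.59). *Mxi1*, of the same family, was at 0.06 (−0.05 to 0.17) and 0.19 (0.08 to 0.30). Both were named after their values were seen. *Mycn*, a relative of *Myc*, had 7 to 12 counts and was not tested.

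The list of Myc target genes held 16, most of which serve ribosome assembly, polyamine and nucleotide synthesis or glycolysis. At 48 h 14 had an interval above 0 and none below it, beside 29.3% and 31.3% of tested genes. At 72 h 11 were above 0 and 1, *Odc1*, below it, beside 25.9% and 26.4%. *Cdk4*, named above as a target of Myc, is not in this list. It differed by −0.52 (−0.58 to −0.46) at 48 h and 0.18 (0.12 to 0.24) at 72 h. The list median was 0.33 at 48 h and 0.15 at 72 h. *Nop56*, a nucleolar protein of ribosome assembly, differed by 0.50 (0.44 to 0.55) and 0.34 (0.28 to 0.40). *Npm1*, nucleophosmin, differed by 0.20 (0.18 to 0.23) and 0.28 (0.26 to 0.31), and *Hspd1*, a mitochondrial chaperone, by 0.31 (0.28 to 0.34) and 0.21 (0.17 to 0.24). For 13 of the 16 the change with butyrate was smaller at 72 h than at 48 h with an interval below 0, against 23.9% of tested genes. *Odc1* was named after its values were seen.

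*E2f1*, which lies on chromosome 2 from 154559407 to 154569892 and whose protein is released by phosphorylation of the retinoblastoma protein, stood at 530 normalised counts without and 611 with butyrate in the 48 h pair, against 453 and 600.5 in the 72 h pair. Both butyrate libraries were above both untreated ones, and the changes were 0.20 (0.04 to 0.37) and 0.41 (0.23 to 0.59). Of 12 pocket protein and other E2F genes, 3 had an interval above 0 and 4 below it at 48 h, beside 29.3% and 31.3% of tested genes. At 72 h 5 were above and 4 below, beside 25.9% and 26.4%. The medians were −0.025 and −0.042, the latter 0.010 with total count scaling. *E2f3*, another activating E2F, differed by 0.37 (0.24 to 0.50) and 0.26 (0.13 to 0.40), *Tfdp1*, the partner of E2F proteins, by 0.21 (0.15 to 0.27) and 0.31 (0.24 to 0.37), and *Rbl2*, a relative of the retinoblastoma protein, by −0.31 (−0.45 to −0.16) and −0.25 (−0.40 to −0.11). *E2f2*, also an activating E2F and named after its values were seen, was higher at 48 h, at 0.36 (0.20 to 0.52). At 72 h it was lower, at −0.56 (−0.73 to −0.39).

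E2F target genes, most of them genes of DNA replication, were divided at 48 h. Then 6 of 16 had an interval above 0 and 5 below it, beside 29.3% and 31.3% of tested genes, with a median of 0.016. At 72 h 13 of 16 were above 0 and none below, beside 25.9% and 26.4%, with a median of 0.32. *Mybl2* differed by 0.62 (0.49 to 0.75) and 0.49 (0.37 to 0.61), *Cdt1*, which licenses replication origins, by 0.53 (0.42 to 0.65) and 0.56 (0.44 to 0.67), and *Rrm2*, a subunit of ribonucleotide reductase, by 0.35 (0.26 to 0.45) and 0.36 (0.26 to 0.45). *Mcm4* and *Mcm5*, subunits of the replicative helicase named after their values were seen, were lower at 48 h (−0.28 and −0.29) and higher at 72 h (0.33 and 0.32), as the 3 kinases were. So was *Tyms*, thymidylate synthase, also named after its values were seen, at −0.19 and 0.16.

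**Figure D4:**
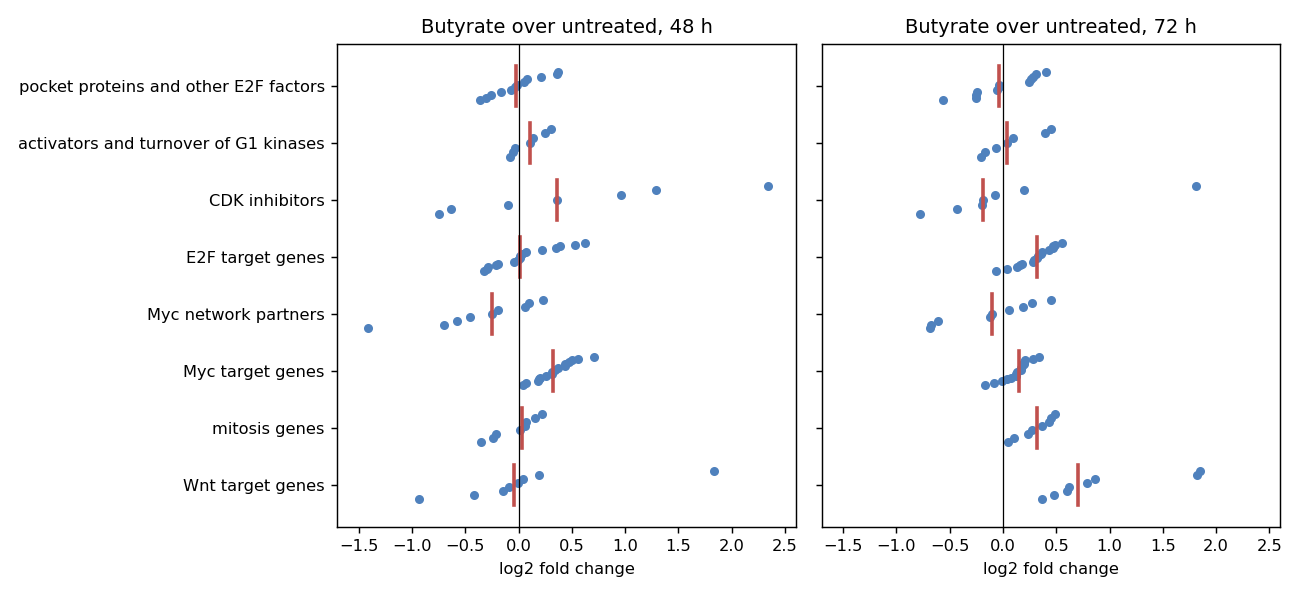
Log2 fold change of butyrate over untreated (horizontal axis) for the tested genes of 8 lists (rows) at 48 h and 72 h. Each point is a gene and red lines are list medians. The Myc target genes lie right of 0 at 48 h, with a median of 0.33, and the E2F target genes and Wnt target genes shift to medians of 0.32 and 0.71 at 72 h.

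CDK inhibitors, the brake on these kinases, moved in both directions. Of 7 tested, 4 had an interval above 0 and 2 below it at 48 h, against 2 and 3 at 72 h, with medians of 0.36 and −0.19. At 48 h 29.3% of all tested genes were above 0 and 31.3% below it. At 72 h these shares were 25.9% and 26.4%, for this list and the next alike. *Cdkn1a*, which encodes p21, differed by 0.96 (0.89 to 1.03) and 0.19 (0.13 to 0.26), *Cdkn1b* by −0.63 (−0.73 to −0.54) and −0.19 (−0.30 to −0.09), and *Cdkn2a*, at 5 to 44 counts, by 2.34 (1.18 to 4.26) and 1.81 (0.97 to 2.91). *Cdkn1c* and *Cdkn2b*, named after their values were seen, were higher at 48 h (1.29 and 0.36) and lower at 72 h (−0.43 and −0.78). Of 7 activators and turnover factors of the G1 kinases, 2 had an interval above 0 and none below it at 48 h, against 2 and 1 at 72 h. Those above 0 at both times were *Skp2*, a ubiquitin ligase subunit that targets p27, with 0.24 (0.06 to 0.43) and 0.45 (0.23 to 0.67), and *Mnat1*, a subunit of the CDK-activating kinase, with 0.30 (0.10 to 0.51) and 0.39 (0.17 to 0.61). *Cks1b*, a partner of Skp2, differed by 0.13 (−0.02 to 0.28) and 0.10 (−0.06 to 0.25).

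Between the untreated libraries, which differ in day alone by their labels, none of the 10 genes had an interval above 0 from 48 h to 72 h and 8 had one below it, against 22.4% and 20.2% of tested genes. With total count scaling these shares were 14.2% and 31.6%. The median was −0.19, beside 0.0027 for all tested genes. *Ccne2* was the gene at least 2-fold lower, as were 1.82% of tested genes, and none was at least 2-fold higher, against 2.66%. *Ccnd3* at 0.01 (−0.13 to 0.16) and *Ccne1* at 0.13 (−0.07 to 0.33) showed no difference detectable at this depth, and the value of *Ccnd3* was −0.063 with total count scaling. Between the butyrate libraries 4 genes had an interval above 0 and 5 below it, against 30.0% and 31.4% of tested genes. *Myc* was the gene at least 2-fold lower there, as were 4.95% of tested genes, and none was at least 2-fold higher, against 3.67%. Each kinase was higher at 72 h than at 48 h with butyrate, at 0.30 (0.18 to 0.43) for *Cdk2*, 0.40 (0.33 to 0.46) for *Cdk4* and 0.41 (0.36 to 0.47) for *Cdk6*, and lower without it, at −0.34 (−0.46 to −0.21), −0.30 (−0.36 to −0.24) and −0.11 (−0.17 to −0.05). With total count scaling the untreated changes of *Cdk4* and *Cdk6* were −0.38 and −0.19. The comparisons over time share libraries with those of butyrate against untreated and do not stand as separate evidence.

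The change with butyrate at 72 h was set against that at 48 h, with an interval from the 4 counts. It was higher at 72 h for *Ccnd1*, *Cdk2*, *Cdk4* and *Cdk6*, by 0.25 (0.17 to 0.32), 0.64 (0.46 to 0.81), 0.70 (0.61 to 0.78) and 0.52 (0.44 to 0.61). It was lower for *Ccnd2*, *Ccnd3*, *Ccne1* and *Myc*, by −0.20 (−0.26 to −0.13), −0.24 (−0.43 to −0.05), −0.39 (−0.64 to −0.14) and −0.88. For *Ccne2* and *E2f1* the interval held 0. Intervals above 0 were found for 24.5% and below 0 for 23.9% of tested genes, and none of the 10 differed by 2-fold or more, against 3.68% higher and 6.85% lower. Markers of colonic epithelium differed between the times as well. Of 10, 5 had an interval above 0 and 5 below it with butyrate at 48 h, beside 29.3% and 31.3% of tested genes. At 72 h 1 was above and 9 below, beside 25.9% and 26.4%. Their summed normalised counts were 219812 (untreated) and 227219 (butyrate) in the 48 h pair and 286642 and 204672 in the 72 h pair. *Vil1*, a protein of the brush border, differed by −0.23 (−0.27 to −0.19) and −0.28 (−0.33 to −0.24), and *Muc2*, the goblet cell mucin, by −0.49 (−0.51 to −0.47) and −0.87 (−0.88 to −0.85). *Car1*, a carbonic anhydrase, *Krt20*, a keratin of mature cells, and *Cdh1*, E-cadherin, named after their values were seen, were higher at 48 h (1.14, 0.31 and 0.24) and lower at 72 h (−0.88, −0.74 and −0.07). *Krt18*, another keratin and named likewise, went the other way (−0.17 and 0.15). Of the mesenchyme markers *Pdgfra* had 9 to 13 counts. The part of these markers in the results was not tested.

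**Figure D5:**
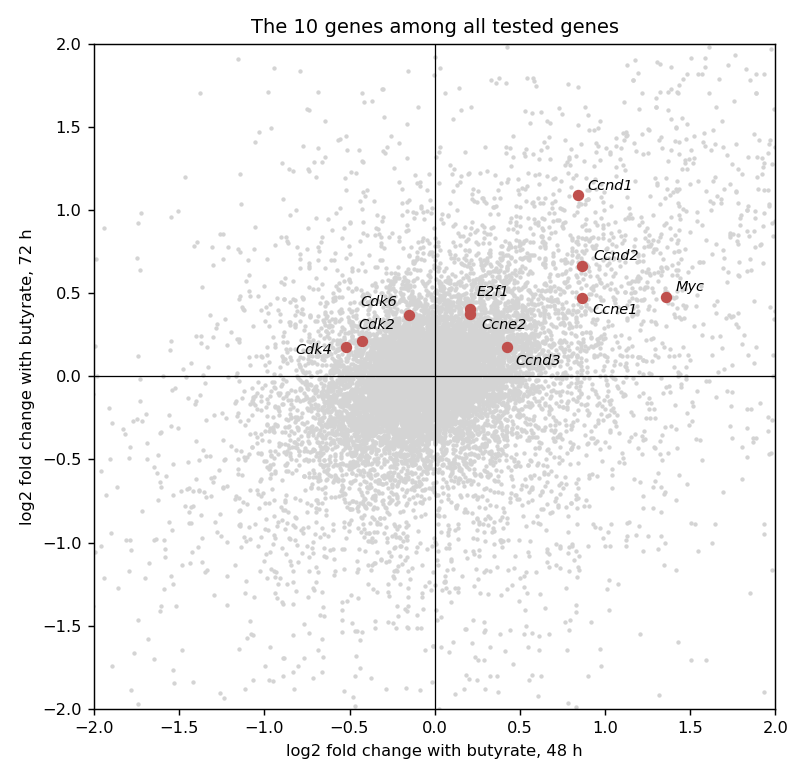
Log2 fold change with butyrate at 48 h (horizontal axis) and 72 h (vertical axis) for the tested genes (grey) and the 10 genes described here (red). Of the tested genes, 531 lie outside the plotted range of −2 to 2. All 10 lie above 0 at 72 h, at 0.18 to 1.09, and the 3 kinases lie left of 0 at 48 h.

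Levels were compared between genes as normalised counts per kb of exon in the GENCODE annotation of GRCm38. Untreated colonoids held most *Cdk4*, at 1555 per kb at 48 h and 1261 at 72 h. With butyrate *Myc* was highest at 48 h, at 2557 per kb, and *Ccnd1* at 72 h, at 1884. With the length of the longest transcript in place of all exons the same gene came first in each library. *Ccnd1* exceeded *Ccnd2* per kb in every library, by 988 to 673 untreated at 48 h and by 1884 to 1007 with butyrate at 72 h, although *Ccnd2* had the higher counts. *Cdk4* exceeded *Cdk6* per kb in every library, from 1555 against 341 untreated to 1085 against 307 with butyrate at 48 h. *Cdk6* was the fifth in every library.

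The lower end of the order was less separated. *E2f1* and *Ccne1*, and *Ccne1* and *Ccne2*, had overlapping counting intervals untreated at 48 h, as did *Ccne2* and *Cdk2* with butyrate at 48 h. At 72 h *Ccne1*, *Cdk2* and *E2f1* followed each other with overlapping intervals both untreated and with butyrate, in differing order. *Myc* and *Ccnd1*, the second and the third, also overlapped untreated at 48 h, at 996 and 988 per kb. *Ccnd3* was at 93.0 to 125 per kb over the libraries, but at 212 to 283 with the length of its longest transcript, since its 21 annotated transcripts span 8775 exon bases and the longest has 3858.

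For the 3 genes with the widest range over the libraries, the genes with the most similar pattern were sought among the 11650 genes whose normalised counts averaged 50 or more. Likeness was the Euclidean distance between log2 normalised counts of the 4 libraries centred on their mean, so that a distance of 0 is an identical pattern. Nearest to *Ccnd1* were *Ms4a10* (0.090), *Zfp940* (0.092) and *AC119928.2* (0.094). Nearest to *Ccne2* was *Ascl2*, a transcription factor of crypt stem cells, at 0.11, followed by *Klhl42* (0.15) and *Tha1* (0.16). *Ascl2* stood at 441 (untreated) and 503 (butyrate) normalised counts in the 48 h pair and at 193 and 268 in the 72 h pair, which like those of *Ccne2* separated by time. Nearest to *Myc* were *Psmb9* (0.21), *9130230L23Rik* (0.29) and *Ier3* (0.33), all of them highest with butyrate at 48 h and lowest untreated at 72 h. With 4 libraries, distances this small describe these libraries only. The genes were chosen by these same values, so a shared order of libraries is no separate result.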

How the data were processed

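Counts per gene were deposited by the authors for 4 libraries, as whole numbers that were not normalised. Poly-A RNA was made into TruSeq libraries, transcripts were quantified by a kallisto-based pseudoalignment (kallisto 0.44.0 and GRCm38.p6 in the submitters' processing notes) and summed to genes with tximport, so reads shared between genes were divided by estimation, which depends on the annotation. Calendar dates stood in place of 26 gene names and 2 names were listed more than once. These rows were kept without a name, and no column of other samples was present.

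A gene was tested where 2 or more libraries each exceeded 10 counts, and counts were divided by DESeq2 1.42.0 size factors, as in the methods of the study. TMM factors came from edgeR 4.0.16 in R 4.3.3, and the other steps used Python 3.11.15 (scipy 1.17.1, pandas 2.3.3, numpy 2.4.6), with figures drawn in matplotlib 3.10.9. Log2 fold changes used a pseudocount of 1. Their 95% intervals were exact Clopper-Pearson intervals on the pair of counts, shares had Clopper-Pearson intervals, levels exact Poisson intervals, and differences between log2 fold changes normal intervals from the 4 counts. PCR copies could not be told from separate molecules, as there were no molecular identifiers, and all these intervals cover counting error only. A floor of 3 counts is 0.124 to 0.144 CPM. With 1 library for each condition no p-value was computed. The calculation was tested on simulated data.

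The 10 genes and the gene lists were chosen with earlier results of these data known. From each list the text names the 3 genes that differed the same way at both times and whose smaller change of the 2 was largest. A gene of the epithelial marker list that this rule names is not reported here. Others are stated as named after their values were seen. Positions and lengths came from GENCODE M21 (GRCm38) and promoter sequences from RefSeq (GRCm38.p6). Alternatives were TMM and total count scaling, total count without mitochondrial genes, a pseudocount of 5, random thinning to the depth of the smallest library (median of 20 draws), other gene filters, transcript length and correlation in place of distance.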

Additional observations from a re-analysis of the deposited data

Results flagged for a closer look

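The kinases *Cdk2*, *Cdk4* and *Cdk6* changed in opposite directions with butyrate at the 2 times, each with both counting intervals apart from 0. The log2 fold change of *Cdk2* was −0.43 at 48 h and 0.21 at 72 h. For *Cdk4* it was −0.52 and 0.18, and for *Cdk6* −0.15 and 0.37. With 1 library per condition the difference between the times was not tested against replicate spread, and time of exposure and the difference between single cultures cannot be told apart.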

How the results depend on the processing

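No analysis paired by replicate number was possible because no condition holds more than 1 library, and none could be left out within a condition. A fit of treatment with day as the block, which leaves 1 residual degree of freedom and takes the days as replicates, was not made. The alternatives were planned with earlier results of these data known. The counts of the 10 genes past 2-fold or with an interval apart from 0 stayed within 1.5 times in all 100 recomputed cases. Of 250 recomputed changes of single genes, 245 stayed within their counting intervals. The sign turned for *Ccnd3* over time untreated, whose interval holds 0, from 0.01 to −0.063 with total count scaling and −0.0071 with that scaling without mitochondrial genes. The other 5 all came with total count scaling, *Ccnd2* at 72 h at 0.72 and the untreated change over time of *Ccnd1* at −0.24, *Ccnd2* at −0.16, *Cdk4* at −0.38 and *Cdk6* at −0.19. That scaling moved the median of all tested genes to −0.075 in the untreated change over time and to 0.054 for butyrate at 72 h. It also put 14.2% of tested genes above 0 and 31.6% below 0 by interval between the untreated libraries. Of 325 list medians, 319 stayed within the intervals of their middle genes, and the other 6 came with total count scaling. Under it the median of the pocket protein and E2F list turned from −0.042 to 0.010 with butyrate at 72 h.

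The share of tested genes past 2-fold depended on the filter. With no filter but 1 count it was 10.98% higher and 9.40% lower with butyrate at 48 h, 10.6% and 8.25% at 72 h, 6.67% and 8.51% over time untreated, 9.91% and 10.2% over time with butyrate, and 12.1% and 14.1% for the difference between the times, where 16.3% had an interval above 0. Among genes averaging 50 normalised counts or more, as all 10 do, it was 3.93% and 1.54% at 48 h, 2.33% and 1.605% at 72 h, 0.755% and 0.841% untreated, 1.66% and 2.51% with butyrate, and 1.65% and 3.50% for the difference. Shares of a family per kb moved with the length used in 22 of 28 cases, *Ccnd1* in the butyrate library at 72 h from 62.9% to 57.7%. Genes most like *Myc* by Pearson correlation were *Gm17018*, *Abraxas1* and *Ube2n-ps1*, in place of those by distance, and other genes were also nearest to *Ccne2* and *Ccnd1*. Depth limits *Cdkn2a*, with 5 counts in a library, and *Ccne2*, whose counts were 237 to 616.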

Other observations

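Mitosis genes and Wnt target genes were followed beside the G1 genes. Of all tested genes, 29.3% had an interval above 0 and 31.3% below it with butyrate at 48 h. At 72 h these shares were 25.9% and 26.4%. Of 8 mitosis genes, 3 had an interval above 0 and 3 below it with butyrate at 48 h, against 6 and 0 at 72 h, with medians of 0.034 and 0.32. *Top2a*, which untangles DNA, differed by 0.22 (0.18 to 0.26) and 0.48 (0.44 to 0.53), *Cdk1*, the kinase of mitotic entry, by 0.16 (0.05 to 0.26) and 0.23 (0.13 to 0.33), and *Aurkb* by 0.07 (−0.06 to 0.20) and 0.43 (0.29 to 0.58). Of 8 Wnt target genes, 2 were above 0 and 4 below it at 48 h, and all 8 above 0 at 72 h, with medians of −0.048 and 0.71. From 48 h to 72 h none of the 8 was above 0 and 7 were below it between the untreated libraries, with a median of −0.53. The shares of tested genes there were 22.4% and 20.2%. Between the butyrate libraries 6 were above and 1 below, beside 30.0% and 31.4%, with a median of 0.32. The comparison at 72 h shares a library with each of these. *Notum*, a secreted Wnt inhibitor, differed by 1.83 (1.26 to 2.52) and 1.85 (1.30 to 2.50) and had 28 (untreated) and 115 (butyrate) counts in the 48 h pair and 32 and 108 in the 72 h pair. *Znrf3*, which removes Wnt receptors, differed by 0.04 (−0.09 to 0.17) and 0.60 (0.47 to 0.74), and *Ascl2* by 0.19 (0.01 to 0.37) and 0.47 (0.20 to 0.75). *Lgr5*, a crypt stem cell receptor, and *Sp5*, a transcription factor, named after their values were seen, were lower at 48 h (−0.94 and −0.42) and higher at 72 h (0.79 and 0.86).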
